A study of Arabidopsis thaliana with 10 samples.

Results

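The CBF and COR genes are the textbook cold-response pathway of Arabidopsis, and 10 of its loci were followed here in seedlings for which the labels record no cold treatment and no growth temperature. The members were chosen by locus, as the regulator genes CBF1 (AT4G25490), CBF2 (AT4G25470) and CBF3 (AT4G25480) and the 7 target-type genes COR15A (AT2G42540), COR15B (AT2G42530), COR413IM1 (AT1G29395), COR413IM2 (AT1G29390), COR47 (AT1G20440), ERD10 (AT1G20450) and RD29A (AT5G52310). All 10 were found among the 33557 genes of each expression table. The tables came from poly(A) RNA-seq of whole seedlings of the Columbia accession, grown for 4 days under constant dim blue light (fluence rate 1 µmol m-2 s-1), with 2 biological replicates for each of 5 genotypes. The study asked how the deubiquitinases UBP12 and UBP13 act on CRY2, a blue-light receptor, in seedling growth. The genotypes were cry2-1, a CRY2 mutant, CRY2oe, a CRY2 overexpressor, UBP13oe, a UBP13 overexpressor, ubp12ubp13, labelled as the double mutant of both deubiquitinase genes, and WT, which is Col-0. The promoters behind the overexpressed genes, the number of independent lines and the background of each line are not given in the sources used here.

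CBF1, CBF2 and CBF3 are AP2-type transcription factors that are switched on within a short time of chilling. They bind the DRE/CRT element, with the core CCGAC, before the COR genes. The COR, ERD and RD products are mostly hydrophilic or chloroplast membrane proteins that protect cells against freezing and water loss. Several of these genes also respond to abscisic acid through ABRE elements, and the circadian clock, light and phytochrome-interacting factors set the level of the pathway in the warmth.

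The libraries matched their CRY2 labels. CRY2 was at 0 and 0.0187 FPKM (fragments scaled by transcript length and by library depth) in cry2-1 and at 3923 and 3808 FPKM in CRY2oe, against 110 and 120 FPKM in WT. UBP13 was at 69.0 and 66.1 FPKM in UBP13oe and at 24.2 and 23.6 FPKM in the libraries labelled ubp12ubp13, against 27.1 and 28.3 FPKM in WT. UBP12 was at 397 FPKM in 1 library labelled ubp12ubp13, with a failed estimate in the other, against 35.0 and 34.8 FPKM in WT. A transcript level does not show whether a mutated gene still makes protein, so those libraries are named here by their label. The loci AT1G04410 and AT1G04420, which lie beside CRY2, were at or near 0 in both cry2-1 and CRY2oe (at most 0.114 FPKM) and between 30.3 and 443 FPKM in WT. By estimate, the shallowest library was ubp12ubp13 replicate 2, with 15.64 M fragments, and the deepest UBP13oe replicate 1, with 30.76 M. Replicates correlated at 0.983 to 0.989 (Pearson's r of log2 values). Summed seed markers were highest in WT replicate 1 (54.9 FPKM over 11 genes) and between 3.17 and 30.5 FPKM in the other libraries.

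The loci sit in short tandem groups. COR15B (bases 17709036 to 17709945 in the tables, TAIR10) and COR15A (17711032 to 17712330) are neighbours on chromosome 2, COR413IM2 and COR413IM1 lie 93 bases apart on chromosome 1, COR47 and ERD10 are neighbours on the same chromosome, and CBF2, CBF3 and CBF1 follow each other on chromosome 4, with no other locus between any of these. RD29A, named LTI140 in the tables, stands alone on chromosome 5 (21240849 to 21243613). In the coding sequences of RefSeq (TAIR10.1), COR15A and COR15B were 83.8% identical, COR413IM1 and COR413IM2 87.2%, COR47 and ERD10 82.3%, and the CBF genes 87.3% to 87.5%. The longest identical stretch was 68 bases, between CBF1 and CBF2. The sources used here do not say how reads from such stretches were shared out, so the split between close copies is uncertain.

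The DRE/CRT core, the letters CCGAC on either strand, was searched in the 500 bases before each start codon, because it is the sequence that CBF proteins are known to bind. It was present before 6 of the 7 COR, ERD and RD genes (all but COR413IM2) and before none of the 3 CBF genes, against 23.4% of 27443 protein-coding genes. The sites are shown because they link the CBF regulators to the COR genes in the textbook pathway, with the core in capitals and 5′ to 3′ on the strand that spells CCGAC. Coordinates are those of TAIR10.1, whose RefSeq annotation places some of these sites inside a transcript model.
COR15A at chr2:17712395-17712419, minus strand, before the gene model: aacttgttggCCGACatacatttgt
COR15A at chr2:17712218-17712242, minus strand, in a 5′ UTR: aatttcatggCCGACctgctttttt
COR15B at chr2:17710124-17710148, minus strand, in a 5′ UTR: aacttgatggCCGACctcttttttc
COR413IM1 at chr1:10289911-10289935, plus strand, before the gene model: ttcattggtaCCGACataactaatt
COR47 at chr1:7085918-7085942, minus strand, in a 5′ UTR: tattcatctaCCGACttcaagaaat
ERD10 at chr1:7089365-7089393, minus strand, in a 5′ UTR: ttcatccaCCGACCGACCGACgtaaaaga
RD29A at chr5:21240617-21240641, plus strand, before the gene model: aaatatcataCCGACatcagtttga
The nearer COR15A site and the COR15B site lie at 266 and 265 bases before their start codons. Of the sites printed, only the nearer COR15A site and the ERD10 site lie inside the gene bounds used for the expression values. ERD10 holds 3 overlapping copies in 1 run, and RD29A holds 4 separate copies, of which the one 302 bases before the start codon is printed. At least 3 copies were found before 0.838% of all genes.

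The same windows were searched for the evening element AAAATATCT, which clock MYB factors bind, on both strands. It stood once before COR15A, COR15B and CBF3 and before none of the other members, against 4.02% of all genes. These 3 sites are shown because the clock is one of the known inputs to the pathway, with the element in capitals. Only the COR15A site lies inside the gene bounds used for the expression values.
COR15A at chr2:17712121-17712149, minus strand, in a 5′ UTR: taatgtgcaaAAAATATCTtactcttaat
COR15B at chr2:17710015-17710043, minus strand, in a 5′ UTR: gcaatgcgcaAAAATATCTagcactcaca
CBF3 at chr4:13019175-13019203, minus strand, in a 5′ UTR: ttttgcctctAAAATATCTtccgccatta
The G-box CACGTG, bound by HY5 and phytochrome-interacting factors, stood before COR15A (2 copies), COR15B, COR413IM1, CBF1 and CBF2, against 9.34% of all genes. The ABRE core ACGTG, which every G-box holds on each strand, stood before 9 of the 10 members (all but ERD10), against 34.9% of all genes. A match shows that the letters are in the window and not that a factor binds there.

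**Figure D1:**
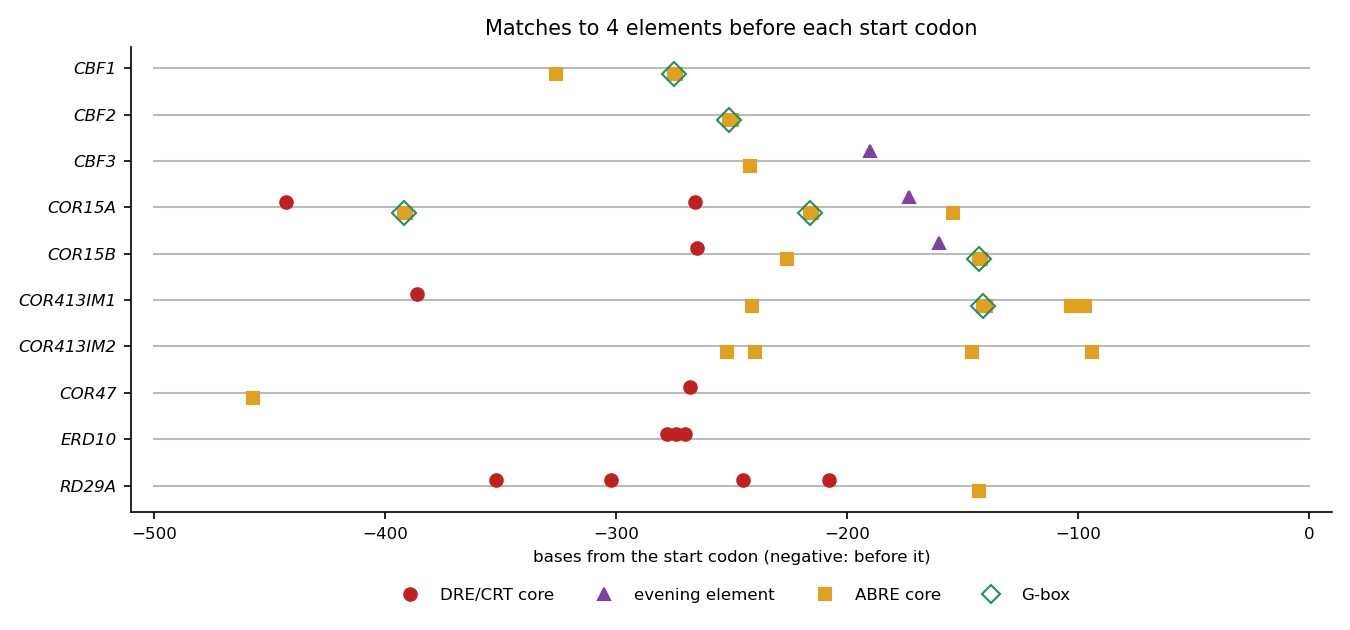
Positions of 4 sequence elements in the 500 bases before the start codon of each member, with the distance from the start codon in bases on the x axis and 1 line per gene. Circles (DRE/CRT core) lie on the lines of 6 of the 7 COR, ERD and RD genes and on no CBF line, and triangles (evening element) on those of COR15A, COR15B and CBF3.

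The CBF genes were barely expressed in any genotype. CBF1, the regulator with the clearest difference, was at 0.351 and 0.208 FPKM in cry2-1, 2.02 and 1.32 FPKM in CRY2oe, 0.435 and 0.794 FPKM in UBP13oe and 1.17 and 1.45 FPKM in the libraries labelled ubp12ubp13, against 1.24 and 1.58 FPKM in WT. Both cry2-1 and both UBP13oe libraries lay below both WT libraries, while CRY2oe and ubp12ubp13 overlapped WT. On the scale of log2(FPKM + 1), which understates changes of low genes, CBF1 fell by 0.91 ± 0.18 in cry2-1 (SE, n = 2 each, limma adjusted p = 0.00404) and by 0.58 ± 0.18 in UBP13oe (adjusted p = 0.0284). Mean FPKM of CBF1 was 5.05-fold lower in cry2-1 than in WT and 5.98-fold higher in CRY2oe than in cry2-1 (log2 difference 1.05 ± 0.18, adjusted p = 0.00224). The UBP13oe call was lost in a fit of only the libraries compared (adjusted p = 0.053), without WT replicate 2 (adjusted p = 0.128) and without UBP13oe replicate 1 (adjusted p = 0.157).

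CBF2 was at 1.56 and 2.03 FPKM in cry2-1, 3.71 and 2.30 FPKM in CRY2oe, 1.66 and 2.21 FPKM in UBP13oe and 1.12 and 3.34 FPKM in the libraries labelled ubp12ubp13, against 1.83 and 1.87 FPKM in WT. The ubp12ubp13 replicates alone spanned almost the whole range, and no comparison passed the test, with an SE of 0.31 on every log2 difference. CBF3 was at 0.158 and 0.493 FPKM in cry2-1, 0.624 and 0.873 FPKM in CRY2oe, 0.458 and 0.744 FPKM in UBP13oe and 1.13 and 1.17 FPKM in the libraries labelled ubp12ubp13, against 0.825 and 0.757 FPKM in WT. It was lowest in cry2-1 and reached 1 FPKM only in the libraries labelled ubp12ubp13, which is how it passed the filter on low values. Its log2 difference of -0.45 ± 0.16 between cry2-1 and WT missed the threshold (adjusted p = 0.0548), and passed it without a filter on low values (adjusted p = 0.0487), with the replicate number as a block (adjusted p = 0.0425) and after median-of-ratios scaling (adjusted p = 0.0384).
Depth limited all 3 CBF genes. The CBF values correspond to an estimated 3 to 74 fragments per library, with CBF1 in cry2-1 resting on about 7 and 4 fragments. In order of mean level, CBF1 ran from cry2-1 through UBP13oe, ubp12ubp13 and WT to CRY2oe, and only the step between UBP13oe and ubp12ubp13 passed the test among neighbours (adjusted p = 0.035). For CBF2 and CBF3 no neighbouring pair did.

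COR15A and COR15B, which encode chloroplast stroma proteins that stabilize membranes during freezing, showed the widest range of the 10 genes. COR15B was at 0.332 and 0.431 FPKM in cry2-1, 64.2 and 73.9 FPKM in CRY2oe, 30.4 and 47.1 FPKM in UBP13oe and 4.78 and 2.98 FPKM in the libraries labelled ubp12ubp13, against 36.2 and 57.8 FPKM in WT. The cry2-1 and ubp12ubp13 libraries lay far below all others, UBP13oe overlapped WT, and both CRY2oe libraries were above both WT libraries. Mean COR15B was 123-fold lower in cry2-1 than in WT (log2 difference -5.08 ± 0.27, adjusted p = 8.79e-06) and 12.1-fold lower in ubp12ubp13 than in WT (-3.29 ± 0.27, adjusted p = 2.46e-05). In cry2-1 the COR15B values rest on about 4 and 5 fragments, so the size of that fold is imprecise. The CRY2oe difference from WT, 0.58 ± 0.27, did not pass (adjusted p = 0.15).

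COR15A was at 0.410 and 0.511 FPKM in cry2-1, 15.2 and 17.9 FPKM in CRY2oe, 5.88 and 12.5 FPKM in UBP13oe and 3.05 and 2.80 FPKM in the libraries labelled ubp12ubp13, against 5.93 and 10.54 FPKM in WT. Again cry2-1 was lowest and CRY2oe highest, with UBP13oe overlapping WT and spread as widely as it. COR15A fell in cry2-1 (-2.61 ± 0.31, adjusted p = 0.000413) and in ubp12ubp13 (-1.19 ± 0.31, adjusted p = 0.0121). The cry2-1 values of COR15A were about as low as those of COR15B, and the fragments behind them were not estimated. The ubp12ubp13 call was lost without WT replicate 2 (-0.82, adjusted p = 0.078) and without ubp12ubp13 replicate 2 (adjusted p = 0.0551). COR15A was 2.01-fold higher in CRY2oe than in WT, which missed the threshold (0.97 ± 0.31, adjusted p = 0.0548) and passed it after nuclear-sum scaling (adjusted p = 0.0494), with the replicate number as a block (adjusted p = 0.0292), with a mean of at least 5 FPKM as the filter (adjusted p = 0.0491) and without WT replicate 2 (adjusted p = 0.0338). Between the CRY2 lines the difference was 3.58 ± 0.31 for COR15A (adjusted p = 7.8e-05) and 5.66 ± 0.27 for COR15B (adjusted p = 4.64e-06), both higher in CRY2oe than in cry2-1. WT replicate 1, which had the higher seed marker sum, had the lower COR15A and COR15B of the WT pair, and the part of seed material in these values was not tested. In whole seedlings, fewer cells of a type and less RNA per cell cannot be told apart.

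COR413IM1 and COR413IM2 encode multispanning proteins of the chloroplast inner envelope, and the tables name them COR414-TM1 and COR314-TM2. COR413IM1 was at 111 and 121 FPKM in cry2-1, 301 and 294 FPKM in CRY2oe, 193 and 192 FPKM in UBP13oe and 84.5 and 69.7 FPKM in the libraries labelled ubp12ubp13, against 277 and 309 FPKM in WT. The groups other than CRY2oe and WT did not overlap, and each step of the order ubp12ubp13, cry2-1, UBP13oe and WT passed the test (highest adjusted p = 0.00145). COR413IM1 fell by 1.32 ± 0.09 in cry2-1 (adjusted p = 3.1e-05), by 0.60 ± 0.09 in UBP13oe (adjusted p = 0.00145) and by 1.92 ± 0.09 in ubp12ubp13 (adjusted p = 1.66e-06). The CRY2oe difference from WT was 0.02 ± 0.09 (adjusted p = 0.873).

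COR413IM2 was at 43.6 and 43.9 FPKM in cry2-1, 68.7 and 67.0 FPKM in CRY2oe, 59.1 and 57.2 FPKM in UBP13oe and 63.9 and 56.5 FPKM in the libraries labelled ubp12ubp13, against 78.2 and 73.9 FPKM in WT. Every other genotype lay below WT, with cry2-1 lowest and UBP13oe overlapping ubp12ubp13. COR413IM2 fell by 0.78 ± 0.06 in cry2-1 (adjusted p = 5.1e-05), by 0.38 ± 0.06 in UBP13oe (adjusted p = 0.00172) and by 0.33 ± 0.06 in ubp12ubp13 (adjusted p = 0.00175). In CRY2oe the difference was -0.16 ± 0.06 (adjusted p = 0.0811), and it passed after median-of-ratios scaling (-0.24, adjusted p = 0.0279) and without either ubp12ubp13 library (highest adjusted p = 0.0348).

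COR47 and ERD10 encode acidic dehydrins, hydrophilic proteins that accumulate in drying or chilled cells. COR47 was at 1325 and 1279 FPKM in cry2-1, 1024 and 924 FPKM in CRY2oe, 1368 and 1327 FPKM in UBP13oe and 555 and 538 FPKM in the libraries labelled ubp12ubp13, against 1434 and 1312 FPKM in WT. It was the most abundant member in every library. CRY2oe and ubp12ubp13 lay below all other libraries, and cry2-1 and UBP13oe overlapped WT. COR47 fell by 1.32 ± 0.07 in ubp12ubp13 (adjusted p = 2.52e-06) and by 0.50 ± 0.07 in CRY2oe (adjusted p = 0.00248). In cry2-1 its difference of -0.07 ± 0.07 did not pass (adjusted p = 0.415), but passed after median-of-ratios scaling (-0.23, adjusted p = 0.0394).

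ERD10 was at 110 and 106 FPKM in cry2-1, 71.5 and 69.3 FPKM in CRY2oe, 131 and 133 FPKM in UBP13oe and 89.5 and 89.6 FPKM in the libraries labelled ubp12ubp13, against 119 and 112 FPKM in WT. No pair of genotypes overlapped. ERD10 was lowest in CRY2oe, where it fell by 0.70 ± 0.04 (adjusted p = 0.000118), and it fell by 0.36 ± 0.04 in ubp12ubp13 (adjusted p = 0.000205). It was the 1 member called higher in UBP13oe than in WT (0.19 ± 0.04, adjusted p = 0.00862), a difference that was 0.02 after median-of-ratios scaling (adjusted p = 0.801) and did not pass after nuclear-sum scaling (adjusted p = 0.0611) or without UBP13oe replicate 2 (adjusted p = 0.0536). In cry2-1 the difference was -0.09 ± 0.04 (adjusted p = 0.138), and -0.24 after median-of-ratios scaling (adjusted p = 0.00341). Both dehydrin genes were lower in CRY2oe than in cry2-1, by 0.42 ± 0.07 for COR47 (adjusted p = 0.0021) and 0.61 ± 0.04 for ERD10 (adjusted p = 2.64e-05), opposite in sign to COR15A, COR15B, COR413IM1, COR413IM2, RD29A and CBF1.

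RD29A, the gene most used as a reporter of the DRE/CRT element, was at 35.7 and 26.9 FPKM in cry2-1, 57.6 and 71.6 FPKM in CRY2oe, 44.6 and 48.9 FPKM in UBP13oe and 37.8 and 31.8 FPKM in the libraries labelled ubp12ubp13, against 66.1 and 64.6 FPKM in WT. CRY2oe spread around WT, UBP13oe stood between, and cry2-1 and ubp12ubp13 overlapped each other at the bottom. RD29A fell by 1.05 ± 0.15 in cry2-1 (adjusted p = 0.000829) and by 0.90 ± 0.15 in ubp12ubp13 (adjusted p = 0.00107). Its fall of 0.48 ± 0.15 in UBP13oe (adjusted p = 0.0301) was lost without any 1 of the 4 libraries compared (adjusted p from 0.0707 to 0.136) and without a filter on low values (adjusted p = 0.057). It was 2.06-fold higher in CRY2oe than in cry2-1 (1.03 ± 0.15, adjusted p = 0.000974).

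**Figure D2:**
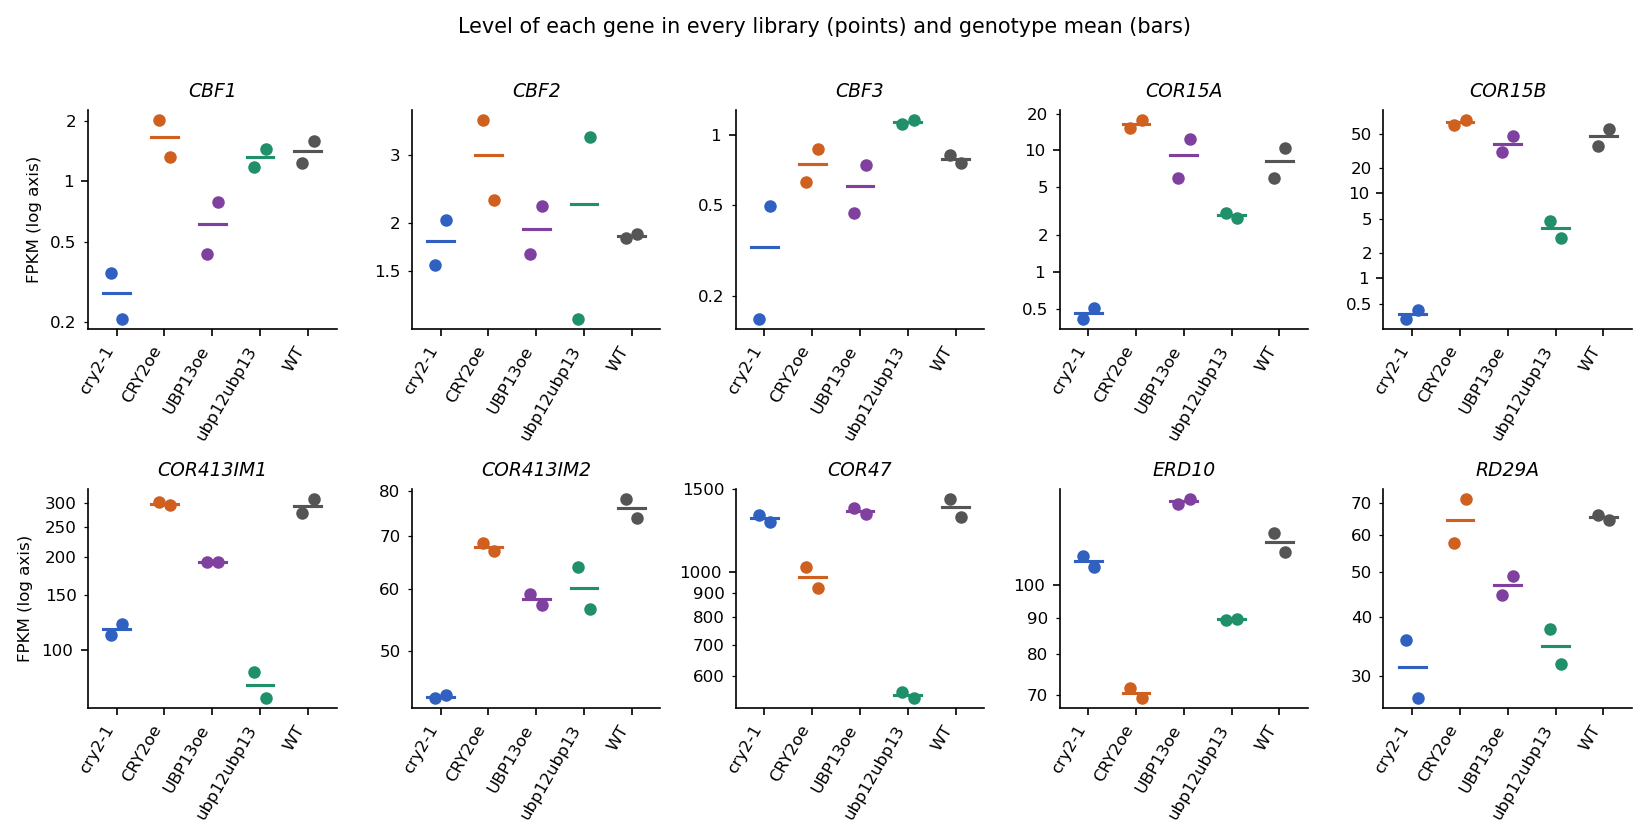
FPKM of each member on a log axis, with 1 point per library and a bar at the mean of each genotype (n = 2). COR15A, COR15B, COR413IM1 and RD29A are low in cry2-1 and ubp12ubp13, COR47 is low in CRY2oe and ubp12ubp13, and ERD10 is lowest in CRY2oe. The CBF2 groups overlap, except that both CRY2oe points lie above all of WT, cry2-1 and UBP13oe. None of the CBF2 differences passed the test.

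Neighbouring copies did not keep a fixed ratio. COR15B stood at 0.809 and 0.843 times COR15A in cry2-1, 4.23 and 4.13 times in CRY2oe, 5.17 and 3.77 times in UBP13oe and 1.57 and 1.06 times in the libraries labelled ubp12ubp13, against 6.11 and 5.49 times in WT, so the ratios were lowest in the genotypes with the lowest COR15 levels. The cry2-1 ratios rest on about 4 and 5 COR15B fragments and on COR15A values of 0.410 and 0.511 FPKM, whose fragments were not estimated. COR413IM1 stood at 2.55 and 2.76 times COR413IM2 in cry2-1 and at 1.32 and 1.23 times in ubp12ubp13, against 3.55 and 4.18 times in WT. COR47 stood at 6.21 and 6.01 times ERD10 in ubp12ubp13 and at 12.02 and 12.03 times in cry2-1, against 12.1 and 11.8 times in WT. The lowest ratio of the COR413IM and COR47/ERD10 pairs was thus in ubp12ubp13, and that of the COR15 pair in cry2-1.

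**Figure D3:**
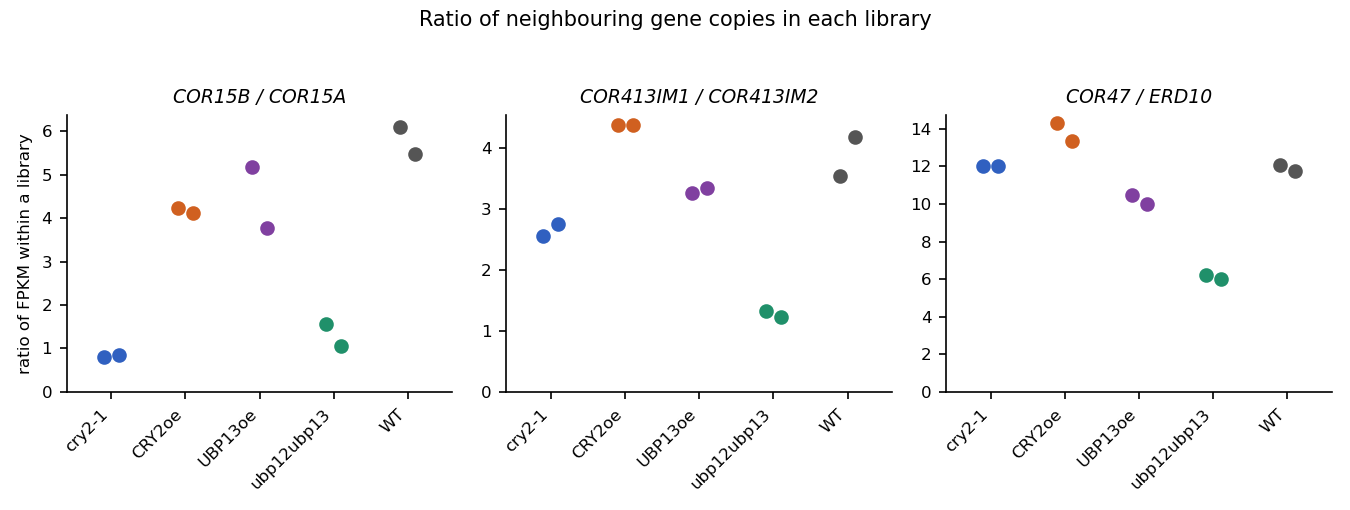
Ratio of the FPKM of neighbouring gene copies within each library, on axes that start at 0, with 2 libraries per genotype. The COR15B/COR15A ratio is at 0.809 and 0.843 in cry2-1 and at 6.11 and 5.49 in WT, and the COR413IM1/COR413IM2 and COR47/ERD10 ratios are lowest in ubp12ubp13.

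The 4 comparisons with WT share the same 2 WT libraries. Counted over the 10 members, limma called 0 higher and 6 lower in cry2-1 than in WT, where 31.7% of all genes tested were called higher and 11.8% lower. COR15A, COR15B, COR413IM1, COR413IM2, RD29A and CBF1 were the 6. The median log2 difference of the members was -0.85, beside 0.12 over all genes. After median-of-ratios scaling the median over all genes was -0.01, 9 members were called lower, with COR47, ERD10 and CBF3 added, and the split of all genes turned from 6331 higher and 2363 lower to 3214 higher and 4126 lower. The shares of plastid transcripts were 16.9% and 17.6% of FPKM in cry2-1 and 8.57% and 11.2% in WT, and their part in the shift was not tested.

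In CRY2oe against WT 0 members were called higher and 2 lower, COR47 and ERD10, while 16.5% of all genes were called higher and 9.63% lower. The median difference of the members was -0.00, beside 0.05 over all genes. After median-of-ratios scaling 2075 genes were called higher and 3134 lower, in place of 3302 and 1922. In CRY2oe against cry2-1, 6 members were called higher and 2 lower, where 13.5% of all genes were called higher and 24.0% lower, and the median difference of the members was 0.82, beside -0.06 over all genes. With median-of-ratios scaling 3472 genes were higher and 3412 lower there, in place of 2685 and 4785, and the members' counts stayed at 6 and 2.

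In UBP13oe against WT 1 member was called higher and 4 lower, COR413IM1, COR413IM2, RD29A and CBF1 being the lower ones, where 35.2% of all genes were called higher and 8.74% lower. The median difference of the members was -0.22, beside 0.15 over all genes. With median-of-ratios scaling that last median was -0.00 and 3436 genes were higher and 3959 lower, in place of 7023 and 1744. Without 1 library, 3 to 5 members were called, with 3 without WT replicate 2, UBP13oe replicate 1 or UBP13oe replicate 2.

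In the libraries labelled ubp12ubp13 all 7 COR, ERD and RD genes were called lower than in WT and none of the 3 CBF genes was called, which makes 0 members higher and 7 lower, where 34.6% of all genes were called higher and 22.2% lower. The median difference was -0.63 over the members, beside 0.09 over all genes. The CBF differences were -0.06 ± 0.18 for CBF1, 0.09 ± 0.31 for CBF2 and 0.26 ± 0.16 for CBF3 (lowest adjusted p = 0.197). With median-of-ratios scaling 5371 genes were higher and 5827 lower, in place of 6905 and 4439, and again 7 members were lower. Against UBP13oe, 1 member was called higher in ubp12ubp13 (CBF1, 0.53 ± 0.18, adjusted p = 0.035) and 6 lower (COR15A, COR15B, COR413IM1, COR47, ERD10 and RD29A), where 20.8% of all genes were called higher and 32.1% lower. The members' median was -0.49, beside -0.06 over all genes. The CBF1 call was lost without UBP13oe replicate 1 (adjusted p = 0.193) or either ubp12ubp13 library (adjusted p = 0.0584 and 0.15), and the RD29A call (-0.42 ± 0.15, adjusted p = 0.0405) was lost after nuclear-sum scaling (adjusted p = 0.0912), with the replicate number as a block (adjusted p = 0.0538) and without any of several libraries (highest adjusted p = 0.209). With median-of-ratios scaling 5035 genes were higher and 5384 lower, in place of 4158 and 6403. The members' counts were then 2 higher and 5 lower, with RD29A lost (adjusted p = 0.0708) and CBF3 gained (adjusted p = 0.0414). CBF3 passed the filter on low values only through the ubp12ubp13 libraries, so that gain is a description.

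**Figure D4:**
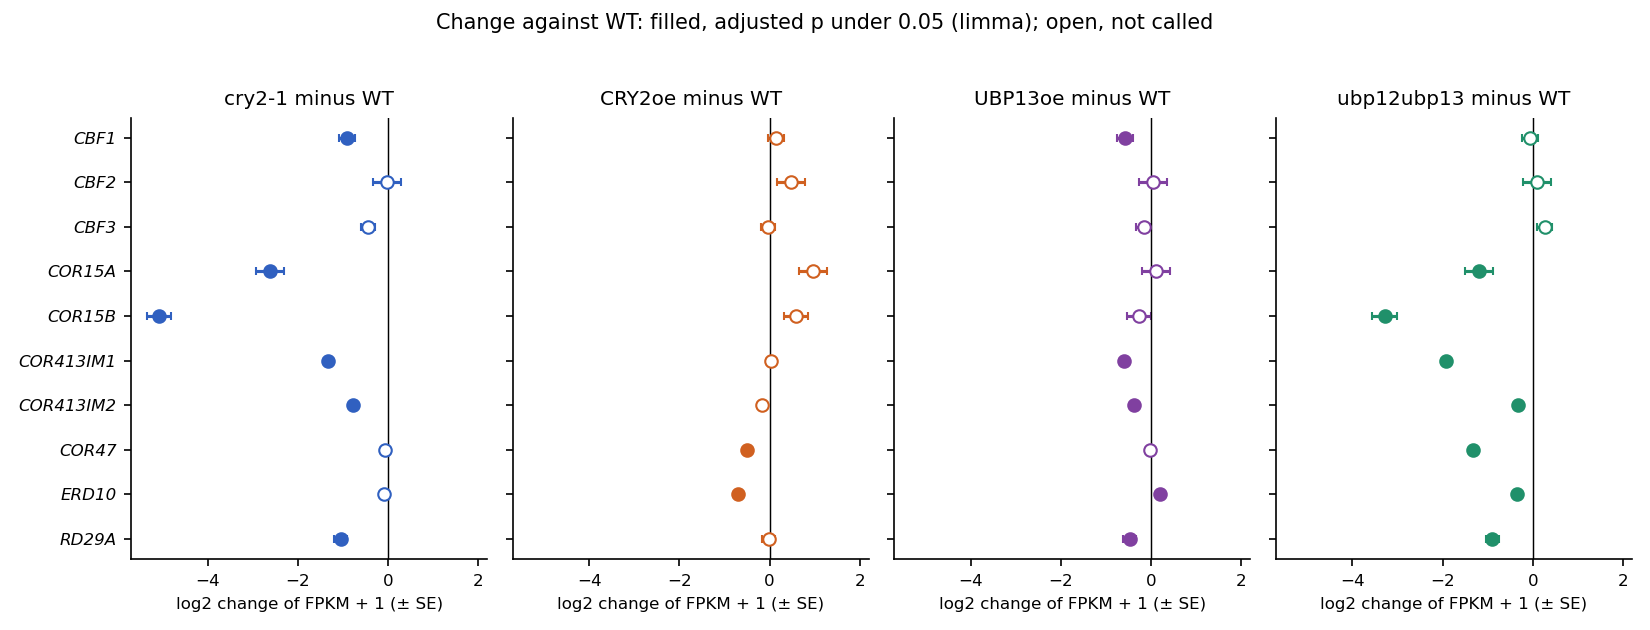
Log2 difference of FPKM + 1 from WT (± SE from limma, n = 2 libraries per genotype) for each member in 4 genotypes. Filled points passed the test, which 6 members did in cry2-1, 2 in CRY2oe, 5 in UBP13oe and 7 in ubp12ubp13, and the COR15B point is the lowest in cry2-1 and in ubp12ubp13.

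Sums of shoot and root markers also differed between the genotypes. Summed shoot markers (6 genes) were at 14880 and 15810 FPKM in cry2-1, 23773 and 23160 FPKM in CRY2oe, 19642 and 19247 FPKM in UBP13oe and 30234 and 28658 FPKM in ubp12ubp13, against 18344 and 16994 FPKM in WT. Summed root markers (11 genes) were at 2611 and 2416 FPKM in cry2-1, 1543 and 1620 FPKM in CRY2oe, 2947 and 3111 FPKM in UBP13oe and 1922 and 1904 FPKM in ubp12ubp13, against 1866 and 1717 FPKM in WT. Shoot marker sums were lowest in cry2-1 and highest in ubp12ubp13, the genotypes in which COR15A, COR15B, COR413IM1 and RD29A were low. Of 5 shoot markers tested, 1 was called higher and 1 lower in cry2-1 than in WT, beside 31.7% and 11.8% of all genes. STM was higher (0.32 ± 0.10, adjusted p = 0.0328) and RBCS1A lower (-0.38 ± 0.08, adjusted p = 0.00687). In ubp12ubp13 3 were higher and 1 lower, beside 34.6% and 22.2%. CRY2oe had 2 and 0 and UBP13oe 1 and 0. The shoot markers thus did not all follow the sums. The STM, CRY2oe and UBP13oe calls were lost after median-of-ratios scaling (lowest adjusted p = 0.0622). Of the 11 root markers, 7 (63.6%) were called higher and 0 lower than in WT in cry2-1, and 6 (54.5%) and 0 in UBP13oe. CRY2oe had 1 (9.09%) higher and 5 (45.5%) lower, and ubp12ubp13 3 (27.3%) and 5 (45.5%), beside the shares of all genes just given. None of the root markers was at 0 in any library, and of the shoot markers CLV3 was at 0 in 1 library and WUS in 7. The part of organ proportions in the members' values was not tested.

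The regulators known to act on the CBF genes were read from a list of 29, of which 28 passed the filter. In cry2-1, 10 of the 28 (35.7%) were called higher and 6 (21.4%) lower than in WT, beside 31.7% and 11.8% of all genes. The list's median difference was 0.10, beside 0.12 over all genes, so the higher calls stood near the share of all genes, and after median-of-ratios scaling the counts were 3 and 10. HY5, a light-signalling bZIP factor that acts on several cold genes, fell to 20.9 and 20.3 FPKM in cry2-1, against 42.8 and 40.3 FPKM in WT (-0.98 ± 0.08, adjusted p = 6.84e-05). PIF3, a phytochrome-interacting factor that represses the CBF genes, was at 24.3 and 23.6 FPKM in cry2-1, against 10.7 and 11.1 FPKM in WT (1.07 ± 0.08, adjusted p = 5.1e-05). CAMTA1, a calmodulin-binding transcription activator, was also higher (0.49 ± 0.05, adjusted p = 0.000173).

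In ubp12ubp13, 8 regulators (28.6%) were higher and 12 (42.9%) lower than in WT, beside 34.6% and 22.2% of all genes (7 and 13 after median-of-ratios scaling), with a median difference of 0.04 beside 0.09 over all genes. The clock MYB gene CCA1 was at 51.8 and 48.6 FPKM in ubp12ubp13, against 18.5 and 17.3 FPKM in WT (1.44 ± 0.06, adjusted p = 9.97e-07). RVE8, a related clock activator, was also higher (1.35 ± 0.07, adjusted p = 1.95e-06). PIF4 was at 22.8 and 21.5 FPKM in ubp12ubp13, against 47.8 and 49.2 FPKM in WT (-1.10 ± 0.06, adjusted p = 2.06e-06).

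In CRY2oe, 11 regulators (39.3%) were higher and 3 (10.7%) lower than in WT, beside 16.5% and 9.63% of all genes (8 and 4 after median-of-ratios scaling), with a median difference of 0.03 beside 0.05 over all genes. The total of 14 calls fell to 8 without WT replicate 1, 9 without CRY2oe replicate 1 and 6 without CRY2oe replicate 2. The clock genes LHY (0.80 ± 0.10, adjusted p = 0.0015) and PRR5 (0.52 ± 0.07, adjusted p = 0.00204) and CAMTA1 (0.35 ± 0.05, adjusted p = 0.00248) had the smallest p-values. In UBP13oe, 7 (25.0%) were higher and 4 (14.3%) lower than in WT, beside 35.2% and 8.74% of all genes, and 4 and 13 after median-of-ratios scaling, so the direction of that list depended on the scaling. The UBP13oe total of 11 fell to 7 without WT replicate 2 or UBP13oe replicate 2. CAMTA3 (0.31 ± 0.05, adjusted p = 0.00168), CCA1 (0.39 ± 0.06, adjusted p = 0.00174) and RVE8 (0.41 ± 0.07, adjusted p = 0.00192) were higher there.
In CRY2oe against cry2-1, 8 regulators were higher and 9 lower (11 and 4 after that scaling), beside 13.5% and 24.0% of all genes, and the total of 17 fell to 10 without cry2-1 replicate 1. The clock repressor genes PRR5, PRR7 and PRR9 were higher (1.05 ± 0.07, 0.77 ± 0.07 and 1.17 ± 0.12, highest adjusted p = 0.000185). In ubp12ubp13 against UBP13oe, 6 were higher and 11 lower (6 and 8 after that scaling), beside 20.8% and 32.1% of all genes. CCA1 (1.05 ± 0.06) and RVE8 (0.94 ± 0.07) were higher and PIF4 (-0.90 ± 0.06) lower there (highest adjusted p = 1.72e-05).

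Of 8 DREB2, ABF and ABI5 genes, which encode the drought and abscisic acid branch acting through DRE and ABRE elements, none was called higher by limma in any of the 4 genotypes than in WT. In each of cry2-1, CRY2oe and UBP13oe 3 (37.5%) were called lower, beside 11.8% of all genes in cry2-1, 9.63% in CRY2oe and 8.74% in UBP13oe, and in ubp12ubp13 6 (75.0%) were, beside 22.2%. The CRY2oe count was 1 without WT replicate 2 or CRY2oe replicate 1 and 0 without CRY2oe replicate 2. The UBP13oe count was 5 without WT replicate 1 and 6 without either ubp12ubp13 library or after median-of-ratios scaling. ABF1, an ABRE-binding bZIP factor, was at 14.1 and 13.9 FPKM in cry2-1, 26.4 and 26.3 FPKM in CRY2oe and 14.2 and 12.8 FPKM in ubp12ubp13, against 23.3 and 23.3 FPKM in WT. It fell in cry2-1 (-0.70 ± 0.06, adjusted p = 7.71e-05) and in ubp12ubp13 (-0.75 ± 0.06, adjusted p = 1.83e-05), the genotypes with the lowest COR15A, COR15B and RD29A. ABF1 also fell in UBP13oe, to 18.1 and 19.4 FPKM (-0.30 ± 0.06, adjusted p = 0.0043), where COR15A and COR15B overlapped WT. ABF4, a related factor, fell in all 4 genotypes, by 0.56 ± 0.08 in cry2-1, 0.31 ± 0.08 in CRY2oe, 0.54 ± 0.08 in UBP13oe and 0.78 ± 0.08 in ubp12ubp13 (highest adjusted p = 0.0213). ABI5, an abscisic acid response factor of seeds and seedlings, fell in UBP13oe (-0.97 ± 0.09, adjusted p = 0.000199) and in ubp12ubp13 (-0.69 ± 0.09, adjusted p = 0.000297). In CRY2oe against cry2-1, 3 of the 8 (37.5%) were called higher and 2 (25.0%) lower, beside 13.5% and 24.0% of all genes. Fewer were called there without cry2-1 replicate 1 or either CRY2oe library. In ubp12ubp13 against UBP13oe 1 (12.5%) was higher and 3 (37.5%) lower, beside 20.8% and 32.1% of all genes. After median-of-ratios scaling these counts were 1 and 1. Fewer were called there without UBP13oe replicate 1, UBP13oe replicate 2 or ubp12ubp13 replicate 1.

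Of 14 other early cold factors and CBF relatives, 11 passed the filter. In cry2-1 2 (18.2%) were called higher and 2 (18.2%) lower than in WT, beside 31.7% and 11.8% of all genes, a total that was 2 without WT replicate 1 and 1 without cry2-1 replicate 1, and the counts were 1 and 4 after median-of-ratios scaling. CRY2oe had 1 called higher (ZAT10, a zinc finger repressor, 1.14 ± 0.34, adjusted p = 0.0426) and 0 lower, beside 16.5% and 9.63%, and without 1 library the total was 0 to 2, with 0 without either cry2-1 or either CRY2oe library and 2 without either ubp12ubp13 library. After median-of-ratios scaling CRY2oe had 1 higher and 2 lower. UBP13oe had 0 higher and 3 lower, beside 35.2% and 8.74%, and the total was 1 without UBP13oe replicate 1 and 6 without either ubp12ubp13 library. In ubp12ubp13 1 was higher and 5 (45.5%) lower, beside 34.6% and 22.2%, with totals of 5 to 6 without 1 library. RAV1, an AP2 and B3 domain factor, was at 136 and 131 FPKM in cry2-1 and at 49.3 and 50.5 FPKM in ubp12ubp13, against 99.5 and 98.2 FPKM in WT, so it was called in opposite directions in the genotypes where COR15A and COR15B fell (0.43 ± 0.05, adjusted p = 0.000549, and -0.97 ± 0.05, adjusted p = 3.48e-06). RAP2.1, a DREB-type repressor, fell by 0.72 ± 0.10 in ubp12ubp13 (adjusted p = 0.000392). In CRY2oe against cry2-1, 3 (27.3%) were higher and 2 (18.2%) lower, beside 13.5% and 24.0% of all genes. Fewer were called there without cry2-1 replicate 1 or CRY2oe replicate 1. In ubp12ubp13 against UBP13oe, 0 were higher and 5 (45.5%) lower, beside 20.8% and 32.1%, with fewer called without UBP13oe replicate 2.

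A further 30 cold-regulated genes were listed, of which 29 passed the filter. In cry2-1, 5 (17.2%) were higher and 13 (44.8%) lower than in WT, beside 31.7% and 11.8% of all genes, with a median difference of -0.31 beside 0.12 over all genes. COR27 and COR28, cold- and blue-light-responsive regulators of the clock and of freezing tolerance, were lowest in ubp12ubp13 and next lowest in cry2-1, as COR413IM1 was. COR27 was at 27.9 and 28.9 FPKM in cry2-1, 75.6 and 72.3 FPKM in CRY2oe, 48.1 and 50.6 FPKM in UBP13oe and 22.03 and 19.7 FPKM in ubp12ubp13, against 81.7 and 76.1 FPKM in WT. It fell by 1.44 ± 0.06 in cry2-1 (adjusted p = 4.52e-06) and by 1.87 ± 0.06 in ubp12ubp13 (adjusted p = 4.59e-07). COR28 fell by 1.38 ± 0.05 in cry2-1 (adjusted p = 2.39e-06) and by 1.93 ± 0.05 in ubp12ubp13 (adjusted p = 2.08e-07). BAM3, a chloroplast beta-amylase of starch breakdown, fell with the COR genes in cry2-1 (-2.75 ± 0.11, adjusted p = 2.91e-06) but not in ubp12ubp13, where it was at 157 and 198 FPKM, against 83.7 and 86.1 FPKM in WT.

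In ubp12ubp13, 8 of the 29 (27.6%) were higher and 12 (41.4%) lower than in WT, beside 34.6% and 22.2% of all genes, with a median difference of -0.08 beside 0.09 over all genes. RCI2A, a small hydrophobic membrane protein gene, was at 600 and 573 FPKM in ubp12ubp13, against 2064 and 2112 FPKM in WT (-1.83 ± 0.06, adjusted p = 4.59e-07). In CRY2oe, 1 (3.45%) was higher and 10 (34.5%) lower than in WT, beside 16.5% and 9.63% of all genes. That total of 11 fell to 7 without WT replicate 2 or CRY2oe replicate 1 and to 6 without CRY2oe replicate 2. RCI2A (-0.75 ± 0.06, adjusted p = 0.00035) and the dehydrin genes XERO1 (-0.73 ± 0.07, adjusted p = 0.000555) and ERD14 (-0.60 ± 0.07, adjusted p = 0.00098) had the smallest p-values in CRY2oe. The dehydrin gene LTI30, of the same list and named after its values were seen, was at 89.5 and 83.6 FPKM in CRY2oe, against 85.2 and 88.9 FPKM in WT (adjusted p = 0.945). In UBP13oe 7 (24.1%) were higher and 7 (24.1%) lower than in WT, beside 35.2% and 8.74% of all genes, and 4 and 13 after median-of-ratios scaling. COR28 (-1.18 ± 0.05, adjusted p = 1.74e-05) and XERO1 (-0.996 ± 0.07, adjusted p = 7.58e-05) fell there, and ESK1, a xylan acetyltransferase whose loss raises freezing tolerance, was higher (1.16 ± 0.09, adjusted p = 9.34e-05). In CRY2oe against cry2-1, 10 were higher and 8 lower, beside 13.5% and 24.0% of all genes, and in ubp12ubp13 against UBP13oe, 11 and 11, beside 20.8% and 32.1%. The CCGAC core stood before 17 of these 30 genes.

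The profile of the 7 COR, ERD and RD genes, taken as their mean log2(FPKM + 1) over the 10 libraries, was carried mostly by COR15B (Pearson's r of 0.986 to the mean), RD29A and COR15A (0.930 each) and COR413IM1 (0.914). COR413IM2 followed at 0.787, COR47 at 0.386 and ERD10 at -0.03. COR47 correlated with COR413IM1 at 0.608 and with ERD10 at 0.586. COR15A and COR15B correlated at 0.971 with each other. Among 14461 genes with a mean of at least 5 FPKM outside the members, the most similar profiles belonged to JMJD5 (r = 0.979), AT5G58370 (0.979), AT5G24460 (0.977), SWEET11 (0.974), ELF4 (0.974) and AT1G19660 (0.973). These values describe 10 libraries in 5 genotype pairs, which share plants and libraries between all genes.

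JMJD5 encodes a histone demethylase of the clock. It was at 20.5 and 20.5 FPKM in cry2-1, 60.3 and 58.6 FPKM in CRY2oe, 50.5 and 55.5 FPKM in UBP13oe and 30.9 and 30.4 FPKM in ubp12ubp13, against 59.4 and 68.5 FPKM in WT. ELF4 encodes a subunit of the evening complex of the clock and SWEET11 a sucrose exporter, and all 6 similar genes were lowest in cry2-1 and next lowest in ubp12ubp13. The choice by likeness to the COR profile fixes that order, so it is a description. Their range was narrower than that of COR15B: the largest difference among them in cry2-1 against WT was that of JMJD5, at -1.59.
For the CBF genes the mean profile followed CBF1 (r = 0.925) more than CBF3 (0.738) and CBF2 (0.717). The most similar genes were NOL, for a chlorophyll b reductase (r = 0.931), AT4G31115 (0.926), ATDTX35 (0.926), AT3G44798 (0.8996), BT5 (0.899) and AT3G03890 (0.894). CBF1 correlated with COR413IM2 at 0.806, COR15A at 0.688, RD29A and COR15B at 0.608 each, COR413IM1 at 0.366, COR47 at -0.42 and ERD10 at -0.57. With CBF values of a few fragments these are weak descriptions.

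**Figure D5:**
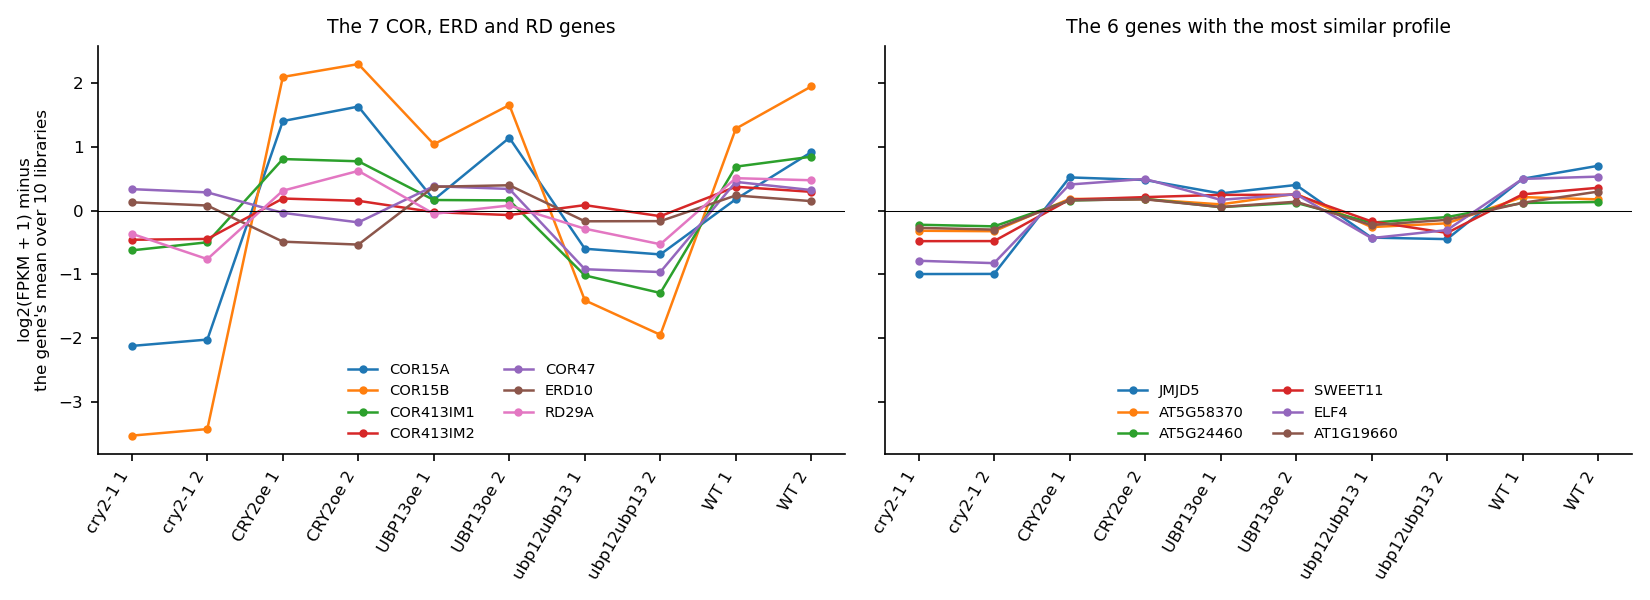
Log2(FPKM + 1) minus the gene's mean over the 10 libraries, for the 7 COR, ERD and RD genes (left) and the 6 genes with the most similar profile (right), on 1 shared y axis with libraries on the x axis. COR15A and COR15B dip deepest in cry2-1, ERD10 is lowest in CRY2oe, and the 6 similar genes dip in cry2-1 and ubp12ubp13 within a narrower range.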

How the data were processed

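The deposited tables, 1 per library, hold FPKM for 33557 genes. Per the submitters' processing notes the authors used STAR (version not given in the sources used here) and Cufflinks 2.1.1 with TAIR10, and per the labels' protocols the libraries were made with a directional kit, but strand use in counting is not given. The members and gene lists were chosen with earlier results of these data known. FPKM are not counts, so genes at 1 FPKM or more in at least 2 of the 10 libraries (19957) were tested on log2(FPKM + 1) by limma-trend (limma 3.58.1, R 4.3.3), in 1 model with a mean per genotype, two-sided, Benjamini-Hochberg adjusted within a comparison over all genes tested, at 0.05. The model had 5 residual and 3.15 prior degrees of freedom. Failed estimates (15 entries, none at a member) were set missing. Depth was estimated from the steps of low FPKM values (98.0% to 99.7% whole within 0.1 fragments). Intervals were not computed. Fragment numbers depend on the estimated depth and on 1 length offset (210 bases), and carry counting error besides. For the CBF genes they lay up to 0.48 from a whole number. Elements were sought on both strands in RefSeq's TAIR10.1 genome (Python 3.11.15, Biopython 1.88), where all 10 members were matched by locus tag. Text examples from lists are taken from the 3 called genes with the smallest adjusted p in each comparison, not all of which are printed, and similar genes the 6 with the highest r. Median-of-ratios scaling divides FPKM by median ratio factors, and nuclear-sum scaling equalizes the nuclear sum.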

Additional observations from a re-analysis of the deposited data

How the results depend on the processing

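The members' differences and the counts of called members, list genes and all genes were recomputed with a pseudocount of 0.1, without a filter, with a mean of at least 5 FPKM, under both other scalings, with the replicate number as a block, without a variance trend, with only the libraries compared and without each library in turn. Correlations, similar genes, copy ratios, marker sums and the order of levels were not recomputed. Of the member differences, 1012 kept their side of the threshold, 26 lost and 24 gained the call. Among differences called in either fit, 0 reversed in direction. Changes of direction among uncalled differences were not counted. With only the libraries compared, 2194 genes were called in CRY2oe against WT, in place of 5224. Without 1 library, the genes called numbered 2152 to 5104 in CRY2oe against WT and 5613 to 8805 in UBP13oe against WT, and the members called in UBP13oe against WT 3 to 5.

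The labels give replicate numbers but nothing that pairs them, and same-numbered deviations correlated at -0.088 to 0.146. With the replicate block, 0 members were called higher and 7 lower in cry2-1 than in WT, beside 6172 and 2321 of 19956 genes. Against WT the counts were 1 and 2 in CRY2oe (all genes 3124 and 1906), 1 and 4 in UBP13oe (6891 and 1743) and 0 and 7 in ubp12ubp13 (6847 and 4430). They were 6 and 2 in CRY2oe against cry2-1 (2658 and 4713) and 2 and 5 in ubp12ubp13 against UBP13oe (4157 and 6353). In that last comparison RD29A was lost and CBF3 gained (limma adjusted p = 0.0399). CBF3 passed the filter on low values only through the ubp12ubp13 libraries, where it was highest, so that gain is a description. Depth limits the CBF genes and COR15B in cry2-1, where COR15A was about as low.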
